A study of Mus musculus with 3 samples.

Results

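The integrin genes and the genes of the proteins that switch integrins on were described across the cell classes of the mouse aorta-gonad-mesonephros region (AGM), a tissue around the embryonic aorta in which endothelial cells give rise to blood stem cells. The set was chosen by gene symbol: 18 alpha subunits, 8 beta subunits, the 2 talins, the 3 kindlins and the integrin-linked kinase Ilk, in all 32 of the 27998 genes in the deposited matrix. Itgam is listed under 2 gene identifiers, so the set covers 33 rows, and the second identifier, with 3 UMIs, is not used below except in the sums over alpha subunits.

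Cells came from pooled embryos at E10.5 with 28 to 32 somite pairs. No strain, allele or treatment is given in the labels. The 3 sorted populations, 1 sample each, were T1-preHSCs (Ter119-CD31+VCad+CD41lowcKit+), endothelial cells (Ter119-CD31+VCad+CD41-cKit+) and live Ter119- AGM niche cells. CD41 is the protein of Itga2b, one of the genes described, so its level between these sorts was partly set by the sorting. RNA was measured by 3′ droplet sequencing with unique molecular identifiers (UMIs), and the deposited matrix pools 9492 barcodes with 78653331 UMIs, or 7544 UMIs from 2488 genes in the median barcode. Barcodes carry 8 suffixes, here called libraries 1 to 8, with medians of 6548 to 15593 UMIs. No label ties a library to a sorted population, so the cells were grouped by marker genes instead, and with no replicate samples no test could be made. It is not known which libraries are lanes of the same cell pool, so agreement between libraries below is not replication. Of the barcode sequences, 54 occur in more than 1 library.

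The classes were gated by how many genes of a marker list had a UMI in a cell, and no integrin, talin, kindlin or Ilk gene was among the markers. Pre-HSC-like cells (158) had at least 3 of 12 haematopoietic transcription factor and signalling markers and a UMI of Cdh5, the gene of VE-cadherin. Blood progenitor-like cells (81) had the same number of haematopoietic markers and no Cdh5 UMI. Endothelial cells (1945) had at least 5 of 12 endothelial markers and fewer than 3 haematopoietic ones, and 68 of them were gated as arterial-like and 1460 as venous-like. Macrophage-like cells (61), megakaryocyte-like cells (61) and germ-cell-like cells (210) had at least 4 markers of their lists. The gates also left out cells with several markers of other lists, so low sums of those lists are partly set by the gates. Germ-cell-like cells had fewer than 3 markers of the endothelial list and of each blood list. The niche (4609 cells) was the sum of 11 classes, the largest being mesenchymal-like (1691), neuron-like (606), dermomyotome-like (560) and sclerotome-like (532). A further 13 granulocyte-monocyte progenitor-like cells were too few to compare.

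Levels are given as CPM, the UMIs of a gene scaled to a total of 1e6 UMIs over all cells of a class. The markers set the gates, so their levels are a description of the classes. All 12 macrophage markers, all 12 endothelial markers and all 10 germ cell markers reached 20 CPM in the class of that name, and 11 of 12 haematopoietic and all 12 endothelial markers did so in pre-HSC-like cells. At the haematopoietic gate 23 barcodes had exactly 3 markers and 163 had 1 marker fewer. Pre-HSC-like cells were deeper (median 12004 UMIs) than endothelial cells (7503). The megakaryocyte-like class was not uniform. Its 21 cells from libraries 1 to 4 had 22669 CPM of the platelet factor gene Pf4 and all 11 megakaryocyte markers at 20 CPM or more. Its 39 cells from libraries 7 and 8 had 148 CPM of Pf4 and 6 of the 11 markers at that level, so the values of both groups are given beside the main results of this class, and its other values are sums over unlike cells.

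Integrins are receptors made of 1 alpha and 1 beta chain that tie cells to matrix proteins or to receptors on other cells. They are held in a bent, weakly binding form until talin and a kindlin bind the tail of the beta chain, a step called inside-out activation. After binding, Ilk with its adaptor partners links the beta tail to actin. In blood, the pair of Itga4 with Itgb1 binds fibronectin and the vascular adhesion molecule VCAM1. Itga2b with Itgb3 is the fibrinogen receptor of platelets, Itgb2 forms the leukocyte integrins, and the kindlin of blood cells, encoded by Fermt3, is needed for activation of all of these. Fermt2 encodes the kindlin of most other tissues and Fermt1 that of epithelia.

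The stretch around the transcription start is printed for 4 genes: the kindlin genes Fermt3 and Fermt2, which made up different proportions of kindlin UMIs by class, and Itga4 and Itga2b, the alpha chains with their highest levels in pre-HSC-like and megakaryocyte-like cells. Each covers 250 bases before to 50 bases after the start, from RefSeq on GRCm38.p6, the assembly behind mm10. Capitals mark the letters GGAAG (the core of sites bound by ETS factors), GATAA (GATA factors) and TGTGGT (RUNX factors), searched on both strands. No 2 matches overlap in these windows. The stretches lie at chr14:45530016-45530315 (minus strand) for Fermt2, chr19:7019420-7019719 (minus strand) for Fermt3, chr2:79255176-79255475 (plus strand) for Itga4 and chr11:102469834-102470133 (minus strand) for Itga2b.
Fermt3: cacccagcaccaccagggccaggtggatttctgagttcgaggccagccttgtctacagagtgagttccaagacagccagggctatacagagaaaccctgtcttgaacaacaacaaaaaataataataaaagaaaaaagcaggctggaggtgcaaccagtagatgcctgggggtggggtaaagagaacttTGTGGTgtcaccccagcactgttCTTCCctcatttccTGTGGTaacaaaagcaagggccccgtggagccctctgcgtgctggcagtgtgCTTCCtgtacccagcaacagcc
Fermt2: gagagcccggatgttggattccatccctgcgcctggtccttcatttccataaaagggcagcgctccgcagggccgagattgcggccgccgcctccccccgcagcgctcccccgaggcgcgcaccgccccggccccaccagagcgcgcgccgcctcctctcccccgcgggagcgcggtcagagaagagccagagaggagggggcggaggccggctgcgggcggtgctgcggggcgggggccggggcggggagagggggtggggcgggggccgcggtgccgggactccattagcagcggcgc
Itga4: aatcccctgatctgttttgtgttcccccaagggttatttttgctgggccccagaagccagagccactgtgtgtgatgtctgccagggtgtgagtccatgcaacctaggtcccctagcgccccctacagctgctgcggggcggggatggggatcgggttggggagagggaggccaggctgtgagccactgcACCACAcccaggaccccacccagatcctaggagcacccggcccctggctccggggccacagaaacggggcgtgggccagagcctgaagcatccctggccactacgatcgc
Itga2b: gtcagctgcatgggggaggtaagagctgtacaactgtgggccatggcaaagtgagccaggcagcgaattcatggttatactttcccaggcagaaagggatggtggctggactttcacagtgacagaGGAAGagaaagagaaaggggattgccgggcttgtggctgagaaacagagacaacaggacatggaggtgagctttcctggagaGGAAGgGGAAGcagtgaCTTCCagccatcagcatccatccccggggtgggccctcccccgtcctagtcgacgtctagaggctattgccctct
The Fermt3 window held 2 matches of the ETS letters and 2 of the RUNX letters, the Fermt2 window none of the 3 motifs, the Itga4 window 1 RUNX match and the Itga2b window 4 ETS matches. Among the 32851 RefSeq promoter windows of the same length, 71.4% held the ETS letters, 25.4% the GATA letters and 16.8% the RUNX letters. A window was found for 23 of the 32 genes, and 17 of these 23 held the ETS letters, 1 the GATA letters and 5 the RUNX letters. A match of letters is a description of the sequence and not a bound site.

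Most genes of the set were silent or low in most classes. How many of all genes were so across the 17 classes was not counted. For scale, 5849 of all 27998 genes, and 11 of the 32, reached 20 CPM in pre-HSC-like or endothelial cells. Each CPM value has an exact Poisson 95% interval, given in parentheses, that covers counting error only. A UMI counts 1 captured molecule at the 3′ end whatever the transcript length, so CPM values of different genes are set side by side without a length correction. Across the 17 classes with at least 50 cells, 20 of the 32 genes reached 20 CPM in at least 1 class, and 3 reached it in every class: Itgb1, Tln1 and Ilk. Arterial-like and venous-like cells are subsets of the endothelium and not counted among the 17. The other 12 genes reached it in none. Of these, Itgad and Itgax had no UMI in any barcode, while Itga1 (at most 18.8 CPM, in smooth muscle-like cells), Itga8 (10.4 CPM, in mesenchymal-like cells) and Itga2 (9.78 CPM, in endothelial cells) came nearest. Itga7, Itga10, Itga11, Itgae, Itgb4, Itgb6 and Itgb7 stayed at or below 5.20 CPM in every class.

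**Figure D1:**
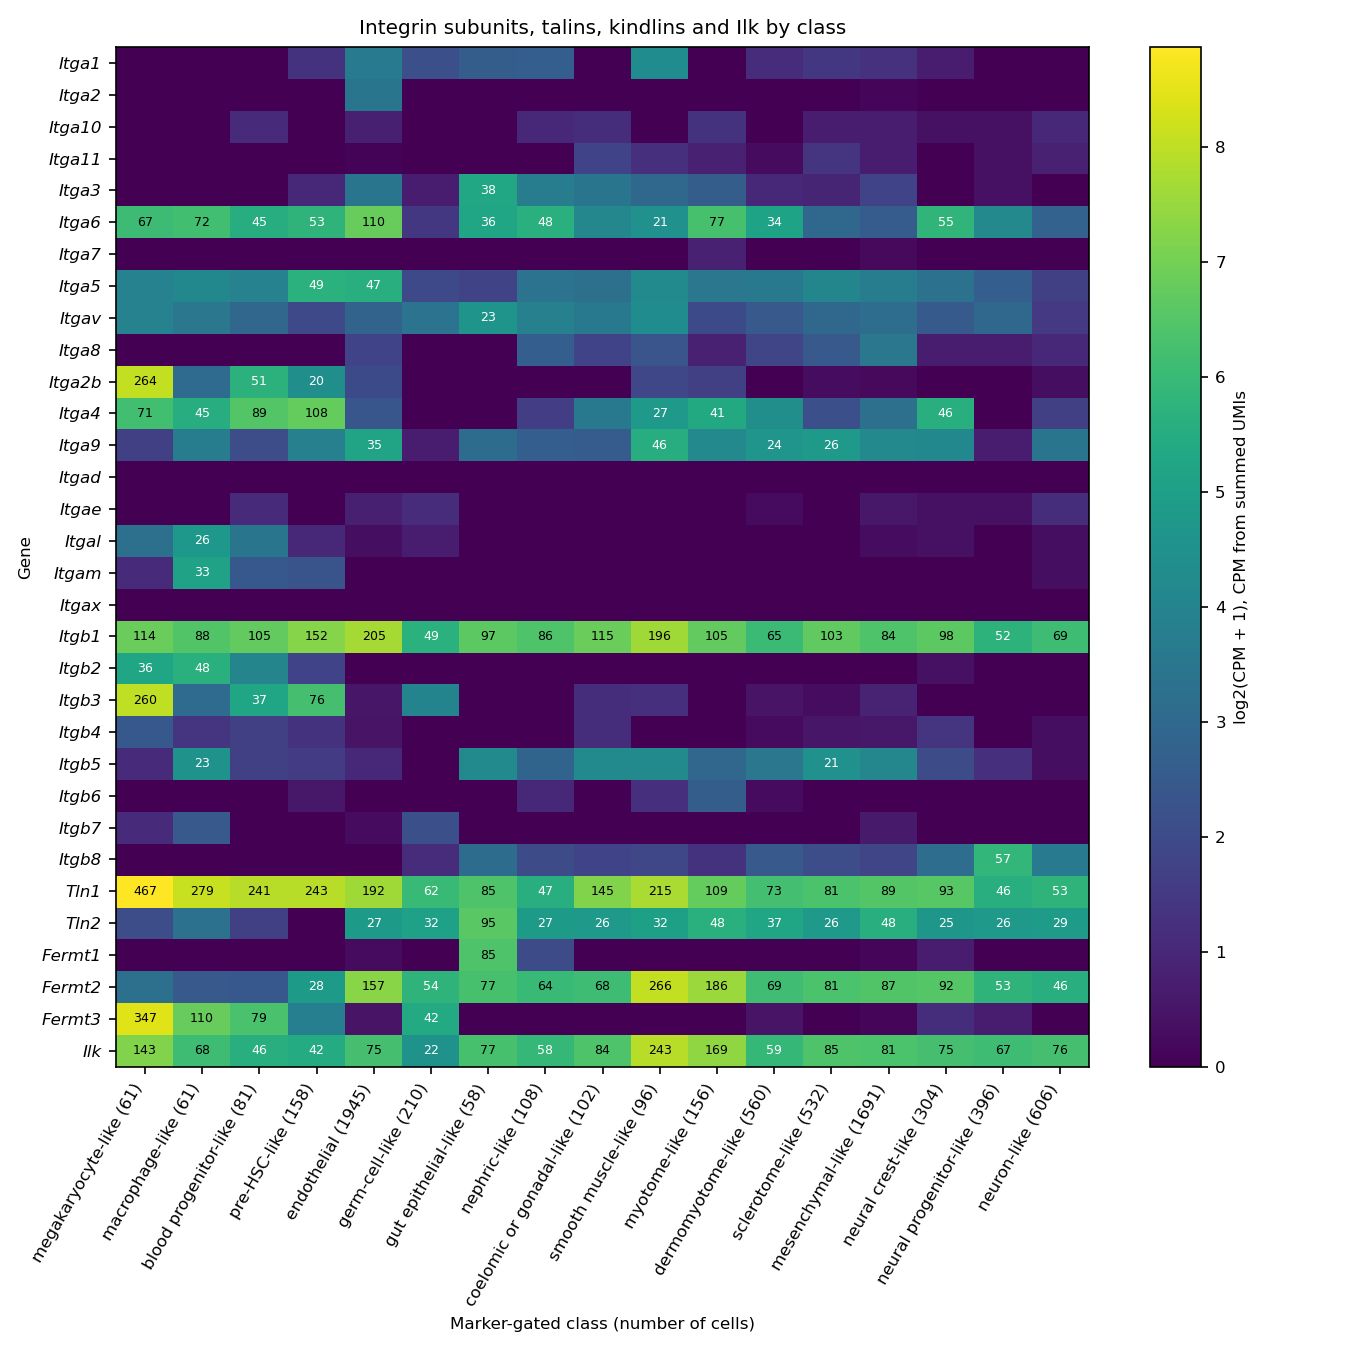
Colour gives log2(CPM + 1) of each of the 32 genes (rows) in each of 17 marker-gated classes (columns, with cell numbers); values of 20 CPM or more are printed in the cells. Itgb1, Tln1 and Ilk are lit in every column, whereas Itga2b, Itgb3 and Fermt3 are highest in megakaryocyte-like cells and Itgb8 and Fermt1 stand out in 1 column each.

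Among beta chains, Itgb1, the partner of most alpha chains, was the most abundant in all 17 classes except megakaryocyte-like and neural progenitor-like cells. It ranged between 49.3 CPM in germ-cell-like cells (39.3 to 60.9) and 205 CPM in endothelial cells (198 to 212), with smooth muscle-like cells (196 CPM, 165 to 230.3) not separated from the endothelium by these intervals. In megakaryocyte-like cells Itgb3 gave 62.4% of the beta-chain UMIs, and in neural progenitor-like cells Itgb8 gave 51.9%. Itgb8, whose pair with Itgav activates latent TGF-beta, stood at 57.4 CPM in neural progenitor-like cells (49.2 to 66.5), well above the next class, neuron-like cells, at 12.0 CPM (8.81 to 15.9). Itgb5, another partner of Itgav, was highest in macrophage-like cells (22.6 CPM, 12.7 to 37.3) and sclerotome-like cells (21.3 CPM, 17.3 to 26.0), which overlapped.

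Itgb3 reached 20 CPM in 3 of the 17 classes, all of them blood classes. It stood at 259.5 CPM in megakaryocyte-like cells (228 to 295), 76.0 CPM in pre-HSC-like cells (64.6 to 88.9) and 37.2 CPM in blood progenitor-like cells (25.8 to 52.0). Germ-cell-like cells came next with 15.1 CPM (9.84 to 22.1), against 0.408 CPM in the niche, and macrophage-like cells had 7.54 CPM (2.45 to 17.6). Itgb2, the chain of the leukocyte integrins, was found at 48.3 CPM in macrophage-like cells, 36.1 CPM in megakaryocyte-like cells and 15.3 CPM in blood progenitor-like cells. In megakaryocyte-like cells it was at 80.4 CPM in libraries 1 to 4 and 23.2 CPM in libraries 7 and 8. It had 5 UMIs in all pre-HSC-like cells and none in endothelial or germ-cell-like cells.

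Among alpha chains, Itga6 reached 20 CPM in 11 of the 17 classes, Itga4 in 7, Itga9 in 4, Itga2b in 3 and Itga5 in 2. Itga6, a laminin receptor chain, was highest in endothelial cells (109.8 CPM, 105 to 115), followed by myotome-like cells (77.3 CPM), macrophage-like cells (72.4 CPM) and megakaryocyte-like cells (66.8 CPM). The intervals of the last 3 overlapped one another. The megakaryocyte-like cells of libraries 1 to 4 had 142 CPM of Itga6 (95.7 to 202), overlapping the endothelium, and those of libraries 7 and 8 had 44.9 CPM (30.5 to 63.7). Itga5, the fibronectin receptor chain, was limited to 2 classes at 20 CPM or more, pre-HSC-like cells (49.2 CPM, 40.1 to 59.8) and endothelial cells (46.9 CPM, 43.6 to 50.4), and the next class, smooth muscle-like cells, had 17.4 CPM. Itga9, whose pair with Itgb1 binds tenascin and other matrix proteins, was highest in smooth muscle-like cells (45.6 CPM, 31.6 to 63.7) and endothelial cells (35.3 CPM, 32.4 to 38.3), which overlapped, followed by sclerotome-like cells (26.3 CPM) and dermomyotome-like cells (23.9 CPM).

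Itga4 was highest in pre-HSC-like cells, at 108 CPM (94.0 to 123), followed by blood progenitor-like cells at 88.7 CPM (70.5 to 110.3) and megakaryocyte-like cells at 71.2 CPM (54.9 to 90.7). Each neighbour in this order overlapped the next. Outside blood it was found in neural crest-like cells (46.4 CPM), myotome-like cells (40.9 CPM) and smooth muscle-like cells (26.8 CPM), and it had no UMI in germ-cell-like, neural progenitor-like or gut epithelial-like cells. The leukocyte alpha chains Itgal (25.6 CPM) and Itgam (33.2 CPM), partners of Itgb2, reached 20 CPM in macrophage-like cells alone among the 17 classes. Itgal rested on 17 UMIs there, and its interval overlapped that of blood progenitor-like cells (9.86 CPM). The 13 granulocyte-monocyte progenitor-like cells, not among the 17 classes, had 22.3 CPM of Itgal.

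Gut epithelial-like cells, a class of 58 cells, had a repertoire unlike the rest of the niche. Itga3, a laminin receptor chain of epithelia, stood there at 38.5 CPM (21.5 to 63.5), with the next class, nephric-like cells, at 12.5 CPM (6.48 to 21.9). Itgav had 23.1 CPM (10.6 to 43.8) there and overlapped several classes. The epithelial kindlin Fermt1 stood at 84.6 CPM (58.3 to 119), and the next class, again nephric-like, had 3.13 CPM from 3 UMIs. Tln2 was also highest there, at 94.9 CPM (66.8 to 131), with myotome-like (48.3 CPM) and mesenchymal-like cells (47.8 CPM) next.

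The kindlin genes divided the classes into 3 groups. Fermt3 gave 97.5% of kindlin UMIs in megakaryocyte-like cells (exact binomial 95% interval 95.2 to 98.9%), 96.1% in macrophage-like cells (88.9 to 99.2%) and 94.7% in blood progenitor-like cells (87.1 to 98.6%). It gave 0.243% in endothelial cells, 6 of 2472 UMIs, and 0.290% in the niche, 9 of 3101 UMIs. Between them stood germ-cell-like cells at 44.0% (36.3 to 51.9%) and pre-HSC-like cells at 32.1% (22.4 to 43.2%). The pre-HSC-like share was 2 of 17 UMIs, or 11.8% (1.46 to 36.4%), in libraries 5 and 6 and 25 of 66 UMIs, or 37.9% (26.2 to 50.7%), in libraries 7 and 8, and it was 18.8% without library 8. Fermt2 gave nearly all of the rest, except in gut epithelial-like cells, where Fermt1 gave 52.4% (39.4 to 65.1%).

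Few cells showed both kindlins at this depth. When each cell was thinned to 3000 UMIs, 0 of 157 pre-HSC-like cells had both Fermt2 and Fermt3 (exact binomial interval 0 to 2.32%). Of these cells, 13 had Fermt2, 4 had Fermt3 and 140 had neither. So few had a UMI of either gene that this count cannot show whether pre-HSC-like cells hold both kindlin transcripts. Both were found in 2 of 61 megakaryocyte-like cells, where 2 had Fermt2 and 36 had Fermt3. Among 205 germ-cell-like cells, 1 had both, 25 had Fermt2 and 26 had Fermt3.

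**Figure D2:**
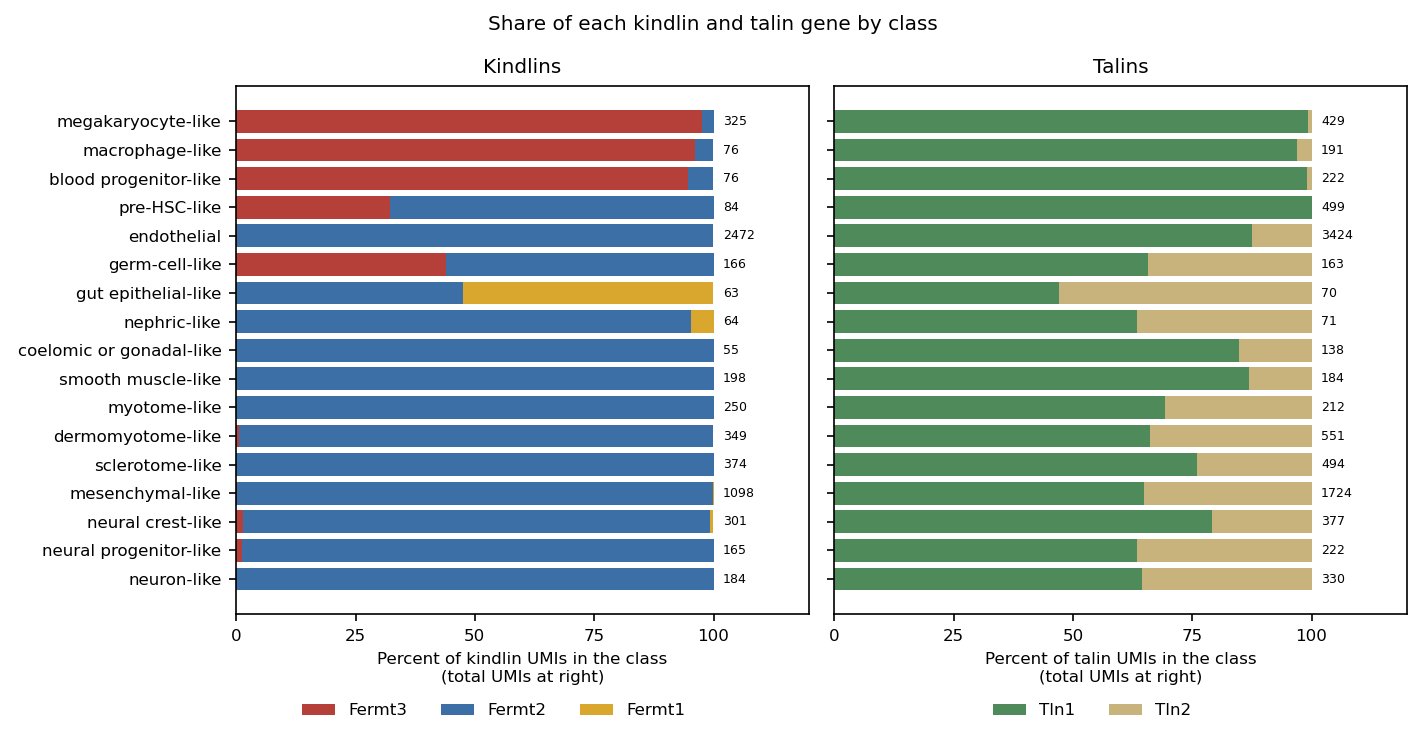
Bars give the percentage of kindlin UMIs (left) and talin UMIs (right) from each gene, by class, with the total number of UMIs behind each bar at its right end. Fermt3 fills 94.7% to 97.5% of the bar in megakaryocyte-like, macrophage-like and blood progenitor-like cells and 32.1% in pre-HSC-like cells, and Tln2 is missing from the pre-HSC-like bar.

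The talins followed another pattern. Tln1 was the main talin in every class but the gut epithelial-like one, where Tln2 gave 52.9% of talin UMIs. Tln2 gave 31.1% of talin UMIs in the niche, 34.4% in germ-cell-like cells and 12.4% in endothelial cells. It had 0 of 499 talin UMIs in pre-HSC-like cells, which at a floor of 3 UMIs allows a share of up to 0.601%, and between 0.699% and 3.14% in the other 3 blood classes. Ilk, the kinase-like adaptor, was highest in smooth muscle-like cells (243 CPM, 209 to 281) and myotome-like cells (169 CPM, 148 to 193), where Fermt2 was high too (266 and 186 CPM). It was lowest in germ-cell-like cells, at 22.0 CPM (15.6 to 30.2).

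Of 24 known alpha and beta pairs, a class was said to hold a pair when both genes reached 20 CPM. Pre-HSC-like cells held 4: Itga4, Itga5 and Itga6 with Itgb1, and Itga2b with Itgb3. The pair with Itga2b was at the edge of the level, with Itga2b at 20.5 CPM. In pre-HSC-like cells Itga2b was at 15.0 CPM (4.88 to 35.1), from 5 UMIs, in libraries 5 and 6, below the level. It was at 22.6 CPM (15.9 to 31.2) in libraries 7 and 8. Macrophage-like cells held 4, 2 of them Itgal and Itgam with Itgb2. Megakaryocyte-like and blood progenitor-like cells each held 3, which were Itga4 with Itgb1, Itga6 with Itgb1, and Itga2b with Itgb3. The first of these pairs did not reach the level in the megakaryocyte-like cells of libraries 1 to 4. Itga4 was at 4.73 CPM there (0.120 to 26.3), from 1 UMI, and this interval includes 20 CPM. Endothelial cells also held 3, which were Itga5, Itga6 and Itga9 with Itgb1. Germ-cell-like, mesenchymal-like, coelomic or gonadal-like, neural progenitor-like and neuron-like cells held none at this level, the first of these having 20.3 CPM summed over all alpha chains.

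**Figure D3:**
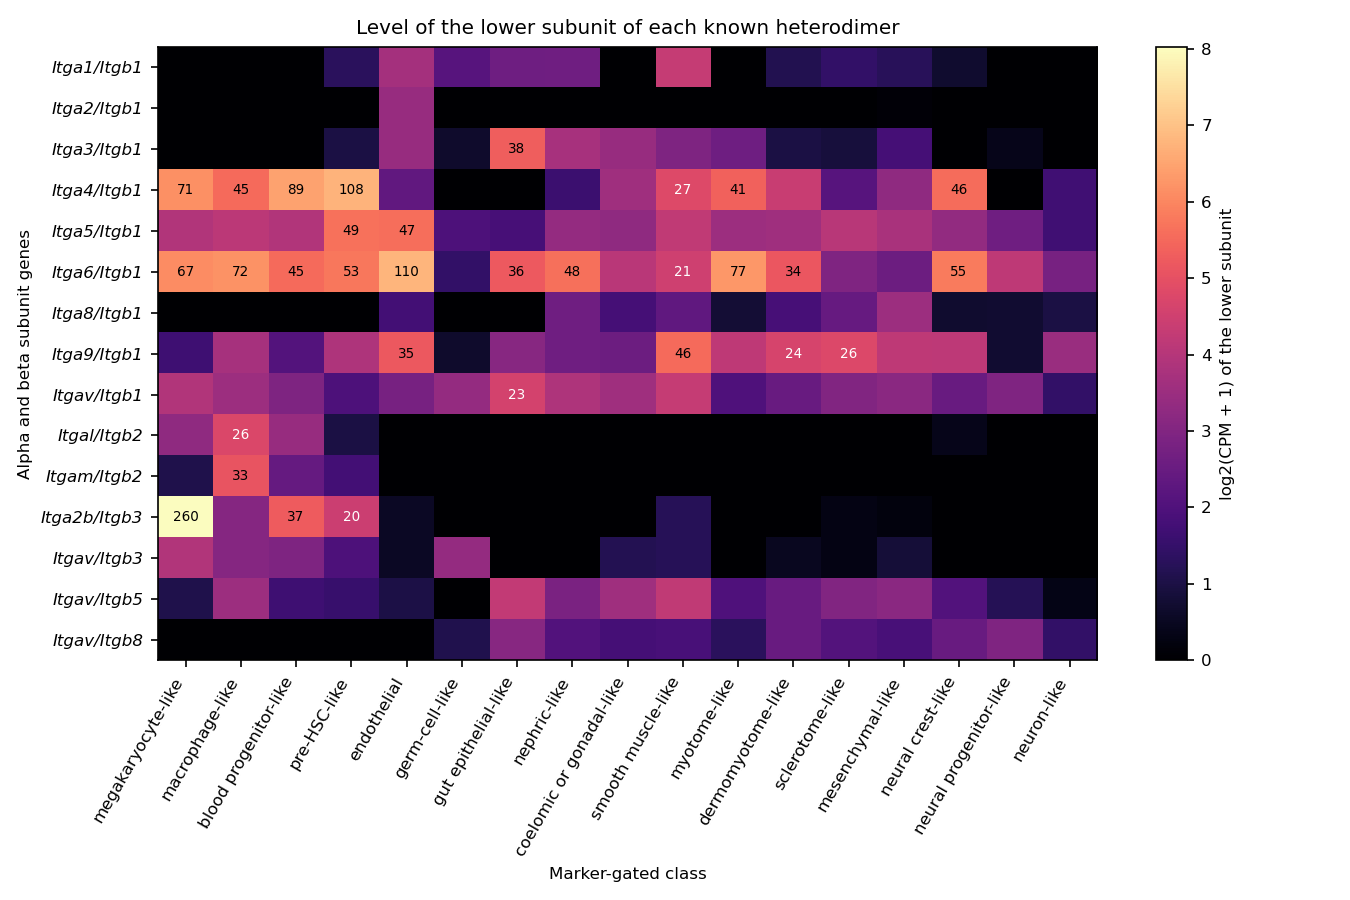
Colour gives log2(CPM + 1) of the lower of the 2 subunit genes for the 15 of 24 known pairs whose lower subunit reached 5 CPM in at least 1 class, across 17 classes; values of 20 CPM or more are printed. The Itga4 and Itgb1 pair is brightest in pre-HSC-like cells, at 108 CPM, and the Itga2b and Itgb3 pair in megakaryocyte-like cells, at 259.5 CPM.

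The pairs Itga2b with Itgb3 and Itga4 with Itgb1 were also counted in single cells. In cells thinned to 3000 UMIs, 19 of 61 megakaryocyte-like cells had a UMI of both Itga2b and Itgb3, against 1 of 157 pre-HSC-like cells. The 19 were 17 of the 21 cells of libraries 1 to 4 and 2 of the 39 of libraries 7 and 8. The pre-HSC-like cells with Itgb3 (37) outnumbered those with Itga2b (9). Itga4 and Itgb3 were both found in 10 pre-HSC-like cells, or 6.37% (3.10 to 11.4%), and Itga4 and Itgb1 in 11. Median depths before thinning were 15094 UMIs in megakaryocyte-like cells and 12004 UMIs in pre-HSC-like cells.

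Pre-HSC-like cells were then compared with endothelial cells, the tissue from which blood precursors arise. A gene counted as higher or lower when log2((CPM + 10)/(CPM + 10)) was at least 1 in size, the higher class reached 20 CPM, and the direction was the same wherever a library held 20 or more cells of each class, here libraries 5 and 6. By this rule 12.2% of the 5849 genes that reached 20 CPM were called, 4.38% higher and 7.86% lower in pre-HSC-like cells. Of the 32 genes, 11 reached that level, and 4 of these were called: Itga4 and Itgb3 were higher in pre-HSC-like cells, Fermt2 and Tln2 lower. The remaining 7 were not called and 21 were below the level. The median log2 ratio of the 11 genes was -0.41, beside -0.03 over all genes measured.

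Itga4 in pre-HSC-like cells stood at 90.1, 135, 103 and 106 CPM in libraries 5, 6, 7 and 8, against 0, 0, 4.27 and 4.55 CPM in endothelial cells of libraries 1, 3, 5 and 6. Every pre-HSC-like value was above every endothelial one. The share of all genes with such a gap between libraries was not counted, here or for the genes below. The ratio of the summed levels, 108 CPM in pre-HSC-like cells and 4.15 CPM in endothelial cells, was 25.9 (exact interval 19.6 to 34.7), a log2 ratio of 3.06. In thinned cells, 25.5% of 157 pre-HSC-like cells had an Itga4 UMI (65.2% before thinning), against 1.28% of 1875 endothelial cells (2.72% before thinning) and none of 205 germ-cell-like cells. Arterial-like endothelial cells had 19.4 CPM of Itga4 (8.89 to 36.9), between both.

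Itgb3, which pairs with Itga2b or Itgav, was at 73.2, 64.4, 80.3 and 78.8 CPM in pre-HSC-like cells of libraries 5, 6, 7 and 8, against 0, 0, 0.458 and 0.492 CPM in endothelial cells of libraries 1, 3, 5 and 6. These values did not overlap, again without a count over all genes. The summed levels were 76.0 CPM in pre-HSC-like cells and 0.447 CPM in endothelial cells, the second from 7 UMIs. Their ratio was 169.9 (80.6 to 429.7), and the log2 ratio on the scale with 10 CPM added was 3.04. A share of 23.6% of thinned pre-HSC-like cells had an Itgb3 UMI, against 0.213% of endothelial cells.

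Fermt2 was lower in pre-HSC-like cells, at 28.2, 64.4, 34.2 and 18.7 CPM in libraries 5, 6, 7 and 8, against 146, 163, 160.0 and 157 CPM in endothelial cells of libraries 1, 3, 5 and 6. No library of pre-HSC-like cells reached the endothelial values, a pattern not counted over all genes. The endothelial level was 5.67 times the pre-HSC-like level (4.36 to 7.50), and the log2 ratio of pre-HSC-like to endothelial cells was -2.15. Tln2 had no UMI in any pre-HSC-like cell, against 25.5, 20.4, 27.8 and 27.1 CPM in endothelial cells of libraries 1, 3, 5 and 6. With a floor of 3 UMIs over the class, its level in pre-HSC-like cells was at least 18.6-fold lower.

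Itga2b, the gene of the sorting antigen CD41, did not pass the rule. It stood at 0, 32.2, 22.3 and 22.8 CPM in pre-HSC-like cells of libraries 5, 6, 7 and 8, against 6.36, 5.09, 3.36 and 2.58 CPM in endothelial cells of libraries 1, 3, 5 and 6. The log2 ratio was 1.24 in sum, but -0.42 in library 5 and 1.75 in library 6. Fermt3, with 13.2 CPM in pre-HSC-like cells and 0.383 CPM in endothelial cells, was below 20 CPM in both. Its pre-HSC-like values were 11.3, 0, 10.4 and 18.7 CPM in libraries 5, 6, 7 and 8. Itgb1 (152 CPM in pre-HSC-like cells, 205 CPM in endothelial cells), Itga5 (49.2 and 46.9 CPM in the same order) and Tln1 (243 and 192 CPM) were among the 7 genes not called, and Itga6 fell just short, at 53.1 CPM in pre-HSC-like cells and 109.8 CPM in endothelial cells (log2 ratio -0.92).

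Other values moved with this comparison. In pre-HSC-like cells the 12 endothelial markers summed to 2504 CPM in libraries 5 and 6 and 1382 CPM in libraries 7 and 8, and Fermt2 to 45.1 CPM (25.2 to 74.4) and 25.0 CPM (18.0 to 34.0). The 11 megakaryocyte markers summed to 172 CPM in pre-HSC-like cells, with 3 markers at 20 CPM or more, 4 at 0 and Pf4 at 35.6 CPM. In endothelial cells they summed to 276 CPM, with 1 marker at 20 CPM or more, 7 at 0 and Pf4 at 3.71 CPM. The endothelial sum thus came mostly from 1 marker that was not Pf4. The 12 macrophage markers summed to 178 CPM in pre-HSC-like cells, with 8 markers at 0, against 3.90 CPM in endothelial cells, with 6 at 0. The part of these cell types in the result was not tested. Within libraries 5 and 6 alone, the ratio of pre-HSC-like to endothelial level was 25.1 for Itga4 (16.3 to 38.2) and 145 for Itgb3 (60.3 to 400.2). For Fermt2 it was 0.285 (0.159 to 0.470), against 0.176 over all libraries, and its log2 ratio was -2.16 in library 5 and -1.17 in library 6.

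**Figure D4:**
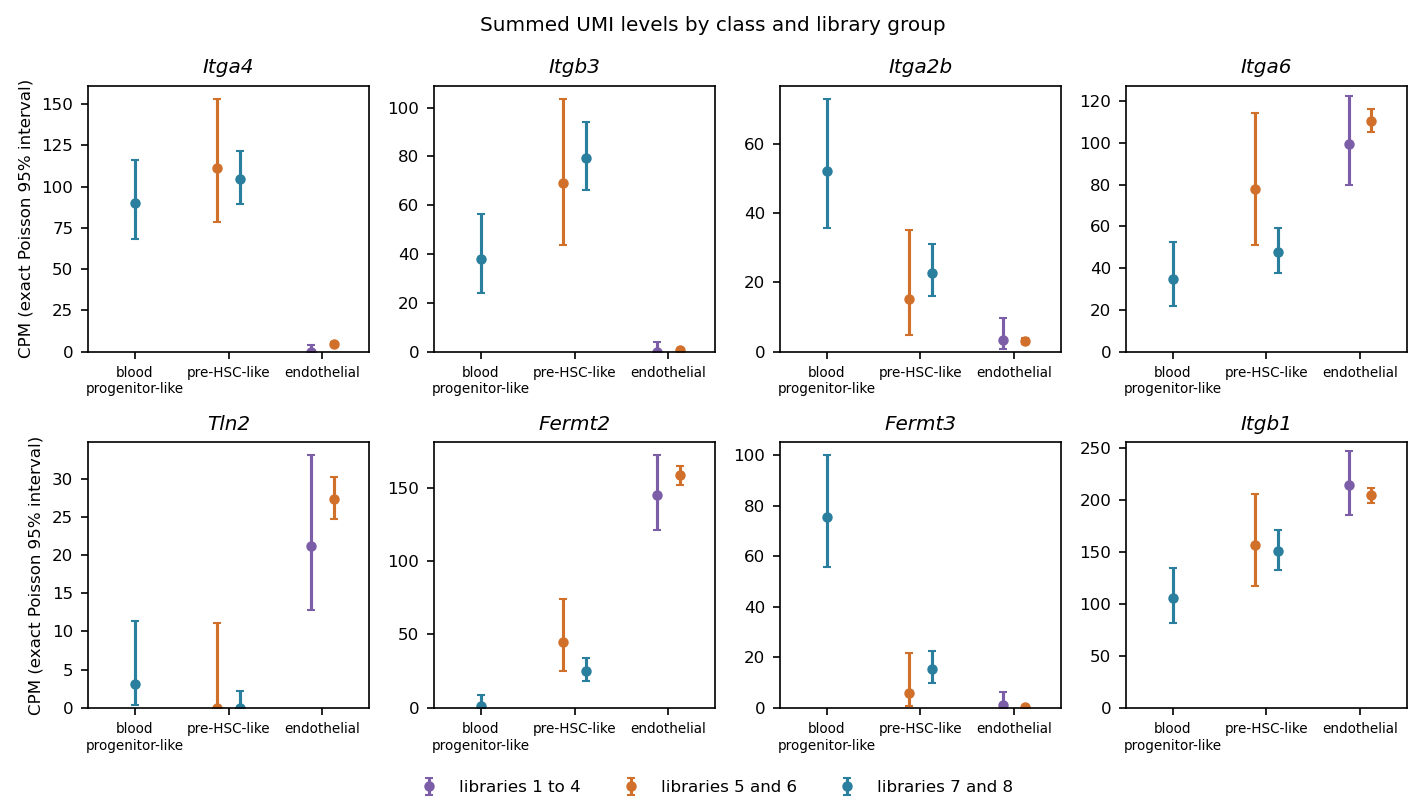
Points give CPM with exact Poisson 95% intervals for 8 genes in blood progenitor-like, pre-HSC-like and endothelial cells, coloured by library group; groups under 20 cells are not drawn. Itga4 lies at 111 and 104 CPM in pre-HSC-like cells of libraries 5 and 6 and of libraries 7 and 8, against 4.43 CPM in endothelial cells of libraries 5 and 6, and Fermt2 lies the other way, at 45.1 and 25.0 CPM against 158 CPM.

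Regulators of integrins also differed between pre-HSC-like and endothelial cells. Of 12 genes for inside-out activation, 8 reached 20 CPM, 2 were higher and 1 lower. Apbb1ip, the adaptor that brings talin to Rap1, had 39.0 CPM in pre-HSC-like cells and 2.05 CPM in endothelial cells, and the integrin-associated Cd47 had 175 and 59.6 CPM in the same order. Rasgrp3, an activator of Rap1, was lower, with 18.5 CPM in pre-HSC-like cells and 109 CPM in endothelial cells. A list of 9 genes named for inhibitors of activation also holds adaptors such as tensins. None of its 5 genes at that level was called. Among 23 genes of focal adhesions, 17 reached the level, 2 were higher and 5 lower, with a median log2 ratio of -0.48. The kinase Ptk2b was higher, at 46.8 CPM in pre-HSC-like cells and 0.128 CPM in endothelial cells. The Ilk partners Parva (4.39 CPM in pre-HSC-like and 41.0 CPM in endothelial cells) and Parvb (7.31 and 50.2 CPM) and the adaptor Bcar1 (1.95 and 33.2 CPM) were lower.

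Ligands for these receptors were measured in the same classes. Of 28 matrix and counter-receptor genes, 14 reached 20 CPM, 7 were lower and 2 higher in pre-HSC-like cells, with a median log2 ratio of -1.03. The laminin chains Lama4 (7.31 CPM in pre-HSC-like cells and 60.5 CPM in endothelial cells) and Lamb1 (12.7 and 73.2 CPM) and the basement membrane protein gene Nid1 (22.9 and 109.5 CPM) were lower. Fibronectin, Fn1, bound by pairs of Itgb1 with Itga4 or Itga5, was higher, with 479 CPM in pre-HSC-like cells and 101 CPM in endothelial cells. Among 6 tetraspanins, which partner laminin-binding integrins in the membrane, 5 reached the level. Cd63 (255 CPM in pre-HSC-like cells and 105 CPM in endothelial cells) and Tspan4 (194 and 85.1 CPM) were higher, and Cd81 (289 and 740 CPM) was lower.

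Blood progenitor-like cells were compared with pre-HSC-like cells as the haematopoietic cells without Cdh5; this comparison was added after the data had been seen. Pre-HSC-like cells serve here and in the next 2 comparisons as the class set against, so these share the same cells. Here 4.12% of all 5604 genes at 20 CPM were called (1.61% higher, 2.52% lower), with the direction checked in library 8 alone. Of 10 integrin, talin, kindlin and Ilk genes at that level, Fermt3 and Itga2b were higher and Itga5 and Fermt2 lower. Fermt3 stood at 78.9 CPM in blood progenitor-like cells and 13.2 CPM in pre-HSC-like cells, a ratio of 5.99 (3.80 to 9.71). Fermt2 stood at 4.38 CPM, from 4 UMIs, in blood progenitor-like cells and 27.8 CPM in pre-HSC-like cells. The summed kindlin level was thus 83.3 CPM in blood progenitor-like cells and 40.9 CPM in pre-HSC-like cells, with the 2 genes in opposite proportion. Within libraries 7 and 8, Fermt3 was at 75.6 CPM in blood progenitor-like cells and 15.3 CPM in pre-HSC-like cells, and Fermt2 at 1.57 and 25.0 CPM.

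Itga5 was at 14.2 CPM in blood progenitor-like cells and 49.2 CPM in pre-HSC-like cells, where the higher level was 3.46 times the lower (1.93 to 6.72). Itga2b was at 51.5 CPM in blood progenitor-like cells and 20.5 CPM in pre-HSC-like cells (ratio 2.52, 1.62 to 3.91). Its log2 ratio of 1.01 was at the edge of the rule and lay between 0.88 and 0.99 when library 2, 3, 4, 5 or 7 was left out. Itga4 (88.7 CPM in blood progenitor-like cells and 108 CPM in pre-HSC-like cells) and Tln1 (241 and 243 CPM) were not called. Itgb3 was not called either, at 37.2 CPM in blood progenitor-like cells and 76.0 CPM in pre-HSC-like cells (log2 ratio -0.86).

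None of the inside-out activation genes, genes listed as inhibitors or focal adhesion genes at 20 CPM was called between blood progenitor-like and pre-HSC-like cells. Of 10 matrix and counter-receptor genes at that level, 6 were lower, with a median log2 ratio of -1.20. Fn1 had 134 CPM in blood progenitor-like cells and 479 CPM in pre-HSC-like cells, and the collagen gene Col4a2 had 21.9 and 116 CPM in the same order. The tetraspanin Cd151, a partner of laminin-binding integrins, had 20.8 CPM in blood progenitor-like cells and 59.0 CPM in pre-HSC-like cells. Markers of other cell types moved with this comparison. The 12 endothelial markers summed to 558 CPM in blood progenitor-like cells (1 at 0) and 1589 CPM in pre-HSC-like cells (0 at 0), the 6 granulocyte-monocyte progenitor markers to 527 and 128 CPM (2 at 0 in each), and the haemoglobin gene Hbb-bh1 was at 87.6 and 1.46 CPM. Cdh5 is 1 of the endothelial markers and was set by the gates, at 0 and 216 CPM, so part of that gap was fixed in advance. The part of these cell types in the result was not tested.

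Megakaryocyte-like cells were compared with pre-HSC-like cells, where 8.86% of all 5689 genes at 20 CPM were called, 4.13% higher and 4.73% lower, with the direction checked in library 8 alone. Of the 32 genes, 11 reached the level, 5 were higher (Fermt3, Itga2b, Itgb2, Itgb3 and Ilk) and 2 lower (Itga5 and Fermt2). Fermt3 stood at 347 CPM in megakaryocyte-like cells and 13.2 CPM in pre-HSC-like cells, a ratio of 26.4 (17.8 to 40.7), and Itga2b at 264 and 20.5 CPM in the same order, a ratio of 12.9 (9.26 to 18.3). The Fermt2 call, from 8 UMIs in megakaryocyte-like cells, was lost under 9 of 18 alternatives, with log2 ratios of -0.95 with 1 more marker in the gates, -0.67 with gates on thinned barcodes and -0.56 with libraries weighted equally. These sums mix unlike cells. Itga2b was at 813 CPM (696 to 944) in the 21 megakaryocyte-like cells of libraries 1 to 4 and 98.5 CPM (76.5 to 125) in the 39 of libraries 7 and 8. Itgb3 was at 818 and 92.7 CPM in these same groups, Fermt3 at 851 and 189.8 CPM, and Ilk at 440 and 55.1 CPM.

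Pre-HSC-like cells came mainly from libraries 7 and 8, so both classes were set side by side there. Fermt3 kept a wide gap, with 189.8 CPM in megakaryocyte-like cells and 15.3 CPM in pre-HSC-like cells, a ratio of 12.4 (8.06 to 19.9), as did Itga2b, with 98.5 and 22.6 CPM, a ratio of 4.36 (2.88 to 6.69). Itgb2 had 23.2 CPM in megakaryocyte-like cells and 2.44 CPM in pre-HSC-like cells. Itgb3 did not separate there, at 92.7 CPM in megakaryocyte-like cells and 79.4 CPM in pre-HSC-like cells (ratio 1.17, 0.85 to 1.59), nor did Ilk, at 55.1 and 39.7 CPM (1.39, 0.90 to 2.10). Itgb1 was at 71.0 CPM in megakaryocyte-like cells and 151 CPM in pre-HSC-like cells of libraries 7 and 8 (ratio 0.471, 0.339 to 0.641), against a ratio of 0.751 over all libraries. Giving each library equal weight ended the calls of Itgb3 and Ilk, at log2 ratios of 0.10 and 0.41, and without library 8 the log2 ratios were 3.91 for Itga2b, 4.76 for Fermt3 and 2.33 for Itgb3. Itga4 was at 4.73 CPM, from 1 UMI, in megakaryocyte-like cells of libraries 1 to 4 and 88.4 CPM in those of libraries 7 and 8.

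**Figure D5:**
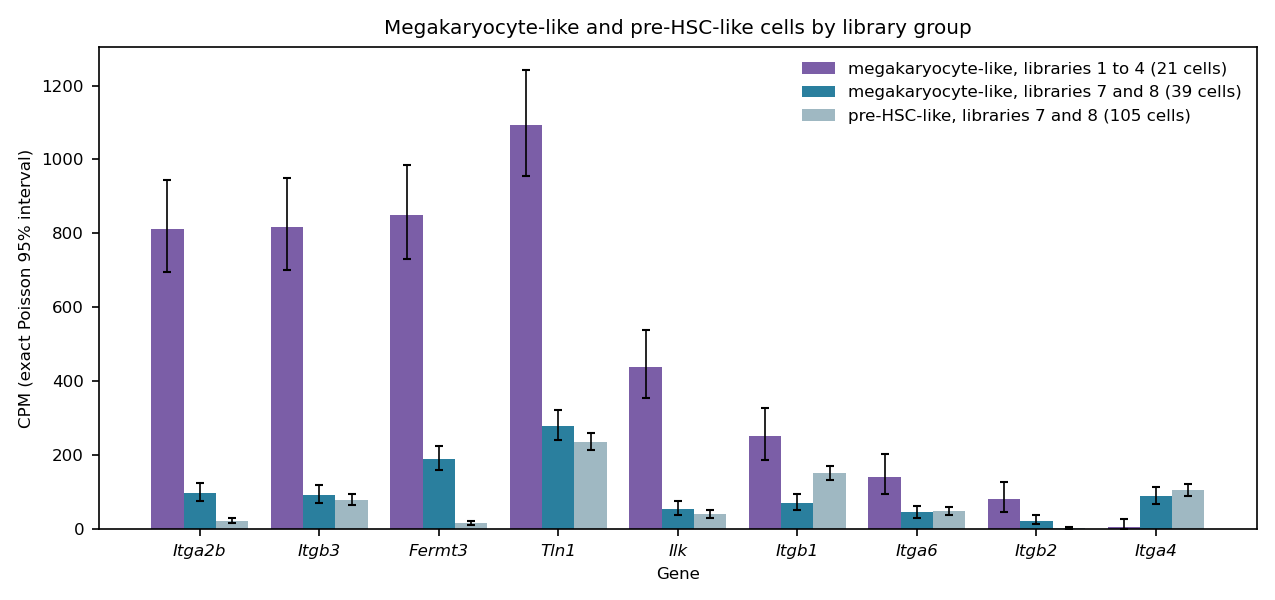
Bars give CPM with exact Poisson 95% intervals of 9 genes in megakaryocyte-like cells of libraries 1 to 4, megakaryocyte-like cells of libraries 7 and 8, and pre-HSC-like cells of libraries 7 and 8. The first group has 813 to 851 CPM of Itga2b, Itgb3 and Fermt3 and 4.73 CPM of Itga4, and the intervals of Itgb3 and Itga4 overlap between the other 2 groups.

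Of 12 inside-out activation genes, 8 reached 20 CPM and 4 were higher in megakaryocyte-like cells, counted over the whole class. The small GTPase gene Rap1b had 838 CPM in megakaryocyte-like cells and 134 CPM in pre-HSC-like cells, and its activator Rasgrp2 had 493 and 185 CPM in the same order. Fyb, an adaptor of integrin activation in platelets and T cells, had 129 and 11.2 CPM. Of 23 focal adhesion genes, 13 reached the level and 4 were higher, among them the Ilk complex genes Lims1 (364 CPM in megakaryocyte-like cells and 105 CPM in pre-HSC-like cells) and Rsu1 (341 and 53.1 CPM). Thbs1, the thrombospondin released by platelets, had 227 CPM in megakaryocyte-like cells and 2.44 CPM in pre-HSC-like cells, while Fn1 (79.9 and 479 CPM) and Col4a2 (7.67 and 116 CPM) were lower.

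These regulators differed between the library groups as well. Rap1b was at 1163 CPM in megakaryocyte-like cells of libraries 1 to 4 and 749 CPM in those of libraries 7 and 8, against 149.6 CPM in pre-HSC-like cells of libraries 7 and 8. Rasgrp2 was at 1461, 201 and 189.96 CPM in these 3 groups, and Lims1 at 931, 188 and 105 CPM. Fyb was at 402, 47.8 and 12.8 CPM, Rsu1 at 1073, 119 and 53.8 CPM, and Thbs1 at 856, 37.7 and 1.22 CPM. The remaining focal adhesion genes called higher were Zyx, at 945, 149 and 142 CPM, and Vcl, at 345, 52.2 and 50.7 CPM. Within libraries 7 and 8, Rasgrp2, Zyx and Vcl thus stood at nearly the same level in both classes, while Rap1b stood higher in megakaryocyte-like cells.

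Macrophage-like cells differed from pre-HSC-like cells at 9 of the 14 genes that reached 20 CPM, where 17.5% of all 5913 genes at that level were called, 9% higher and 8.54% lower. No library held 20 cells of both classes, so the direction was not checked by library and library and class cannot be told apart. Itgb2 (48.3 CPM in macrophage-like cells and 2.44 CPM in pre-HSC-like cells, ratio 19.8, 7.66 to 65.1), Itgam (33.2 and 3.90 CPM) and Itgal (25.6 and 0.975 CPM, the second from 2 UMIs, ratio 26.3, 6.25 to 235) were higher, as were Fermt3 and Itgb5. Fermt3 had 110.1 CPM in macrophage-like cells and 13.2 CPM in pre-HSC-like cells, a ratio of 8.37 (5.32 to 13.5).

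Lower in macrophage-like cells were Itgb3, Itga4, Itga5 and Fermt2. Itgb3 had 7.54 CPM, from 5 UMIs, in macrophage-like cells and 76.0 CPM in pre-HSC-like cells, and Itga4 had 45.3 CPM in macrophage-like cells and 108 CPM in pre-HSC-like cells. Itga5 (16.6 CPM in macrophage-like and 49.2 CPM in pre-HSC-like cells) and Itga4 were no longer called without library 3, at log2 ratios of -0.90 and -0.86. Itgb5 kept a log2 ratio of 1.19 without that library but fell below 20 CPM. Among regulators, Fyb was higher, with 193 CPM in macrophage-like cells and 11.2 CPM in pre-HSC-like cells, and Rasgrp2 was lower, with 63.4 and 185 CPM. Of 11 matrix and counter-receptor genes at 20 CPM, 8 were lower and none higher. Fn1 had 19.6 CPM in macrophage-like cells and 479 CPM in pre-HSC-like cells.

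Endothelial cells were compared with the niche as a whole, where 14.2% of all 6006 genes at 20 CPM were called (8.16% higher, 5.99% lower) with direction checked in libraries 1, 3, 5 and 6. Of 8 genes at that level, 4 were higher in endothelial cells and none lower: the alpha chains Itga6 and Itga5, their partner Itgb1, and Tln1. Itga6 was at 98.7, 107, 111 and 110.2 CPM in endothelial cells of libraries 1, 3, 5 and 6, against 19.5, 20.3, 4.56 and 17.4 CPM in niche cells of the same libraries. The groups did not overlap, but this was not counted over all genes, and libraries 5 and 6 held 28 and 27 niche cells. The ratio of the sums, 109.8 CPM in endothelial cells and 19.3 CPM in niche cells, was 5.68 (5.20 to 6.20). Itga5 was at 50.9, 45.8, 45.8 and 48.2 CPM in endothelial cells of libraries 1, 3, 5 and 6, against 9.33, 9.87, 13.7 and 13.0 CPM in niche cells, a ratio of 4.50 (3.97 to 5.10).

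Itgb1 was at 205 CPM in endothelial cells and 84.7 CPM in niche cells, and Tln1 at 192 and 81.9 CPM in the same order. The gap was narrower in the libraries with most endothelial cells. The Tln1 log2 ratio was 1.13 in sum, 1.38 and 1.13 in libraries 1 and 3, and 0.46 and 0.03 in libraries 5 and 6. Libraries 5 and 6 held only 28 and 27 niche cells, and niche Tln1 was 141 and 183 CPM there. With each library weighted equally the Tln1 log2 ratio was 0.67 and no longer called. The niche is also not 1 cell type: smooth muscle-like cells had 196 CPM of Itgb1 and 215 CPM of Tln1, against 205 and 192 CPM in endothelial cells, and myotome-like cells had 77.3 CPM of Itga6. Ilk (74.7 CPM in endothelial cells and 82.2 CPM in niche cells), Tln2 (27.2 and 36.9 CPM), Fermt2 (157 and 83.0 CPM) and Itga9 (35.3 and 16.9 CPM) were not called.

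The activators Rasgrp3 and Rasgrp2 were among the 4 of 7 inside-out activation genes higher in endothelial cells. Rasgrp3 had 109 CPM in endothelial cells and 2.04 CPM in niche cells, and Rasgrp2 had 96.3 and 4.21 CPM in the same order. Matrix and counter-receptor genes were higher at 9 of 14, led by Icam2, a ligand of the leukocyte integrins, with 218 CPM in endothelial cells and 0.109 CPM in niche cells. The basement membrane collagen genes Col4a1 (165 CPM in endothelial cells and 24.5 CPM in niche cells) and Col4a2 (287 and 43.6 CPM) were higher too, and the fibrillar collagen gene Col1a2 (0.831 and 64.5 CPM) was lower. Of 5 tetraspanins at 20 CPM, Cd9, Cd81 and Tspan4 were higher in endothelial cells and Cd63 lower.

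Arterial-like endothelial cells were compared with venous-like ones, since blood precursors arise from arterial endothelium. Few genes differed: 3.5% of all 5740 genes at 20 CPM were called (2.74% higher, 0.767% lower), and 1 of 10 genes of the set, Itga1, a collagen receptor chain. Itga1 was at 24.5 and 37.8 CPM in arterial-like cells of libraries 5 and 6, against 7.23 and 9.75 CPM in venous-like cells of those libraries. Its sums, 28.1 CPM in arterial-like cells (13 UMIs) and 8.93 CPM in venous-like cells, gave a ratio of 3.14 (1.62 to 5.61) and a log2 ratio of 1.01, just past the rule. Without library 6 it was 0.81 and no longer called. Itga4 had a larger log2 ratio, 1.30 (1.14 in library 5 and 1.59 in library 6), but with 19.4 CPM in arterial-like cells, from 9 UMIs, and 1.98 CPM in venous-like cells it missed the 20 CPM level. Itga6 ran the other way without being called, at 60.5 CPM in arterial-like cells and 113.7 CPM in venous-like cells (log2 ratio -0.81). Itga5 (73.4 and 44.8 CPM in the same order), Fermt2 (212 and 154 CPM), Ilk (114 and 70.0 CPM) and Itga2 (21.6 and 9.34 CPM) were not called. Marker sums of other cell types differed too. The 8 smooth muscle markers summed to 233 CPM in arterial-like cells (5 at 0) and 9.18 CPM in venous-like cells (1 at 0). The haematopoietic markers summed to 108 and 29.3 CPM in the same order, and the macrophage markers to 0 and 4.22 CPM. The part of these cell types in the Itga1 and Itga4 values was not tested.

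Among the ligand genes, Fn1 had 324 CPM in arterial-like cells and 89.5 CPM in venous-like cells, and Madcam1, a counter-receptor of the pairs that contain Itga4, had 47.5 and 10.8 CPM in the same order. Both were called higher, 2 of 13 genes at 20 CPM on that list. Slc3a2, a regulator of integrin signalling, had 253 CPM in arterial-like cells and 91.3 CPM in venous-like cells.

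Primordial germ cells pass through this region on their way to the gonad. Germ-cell-like cells had few integrin transcripts. Alpha chains summed to 20.3 CPM in germ-cell-like cells and 77.2 CPM in niche cells, and beta chains to 69.0 and 106 CPM in the same order. Against the niche, 27.8% of all 5960 genes at 20 CPM were called (7.48% higher, 20.3% lower), with the direction checked in libraries 5 and 6. Of 6 genes of the set at that level, Fermt3 was higher and Ilk lower. Fermt3 was at 44.6 and 41.9 CPM in germ-cell-like cells of libraries 5 and 6, against 0 CPM in the 28 and 27 niche cells there and at most 0.366 CPM in niche cells of any library. The sums, 42.3 CPM in germ-cell-like cells and 0.245 CPM in niche cells (9 UMIs), gave a ratio of 173 (86.3 to 393) and a log2 ratio of 2.35 with 10 CPM added to each.

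Several values were set beside the Fermt3 count in germ-cell-like cells. Blood markers were near 0 in this class: the 11 megakaryocyte markers summed to 2.90 CPM with 9 at 0 and Pf4 at 0, the 12 haematopoietic markers to 10.4 CPM with 9 at 0, and the 12 macrophage markers to 11.6 CPM with 9 at 0. The gate left out cells with 3 or more markers of any of these lists. These sums were thus partly fixed in advance and cannot show whether blood RNA adds to the count. Endothelial cells of libraries 5 and 6 had 0.340 CPM of Fermt3. In thinned cells, 12.7% of 205 germ-cell-like cells had a Fermt3 UMI (25.7% before thinning), against 0.107% of 1875 endothelial cells, and median depths were 8134.5 and 7503 UMIs. Fermt3 lies on the minus strand of chromosome 19, at chr19:6998958-7019469 in GENCODE M21 on GRCm38, and the next gene upstream on that strand, Stip1, ends 1233 bases away. Stip1 had 359 CPM in germ-cell-like cells and 221 CPM in niche cells, where Fermt3 was at 0.245 CPM; whether transcripts that run on from Stip1 add to the Fermt3 count was not tested.

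Ilk was at 16.7 and 29.1 CPM in germ-cell-like cells of libraries 5 and 6, against 114 and 156 CPM in niche cells of those libraries, and at 22.0 CPM in germ-cell-like cells and 82.2 CPM in niche cells in sum. The niche level was 3.73 times the germ-cell-like level (2.71 to 5.29). Itgb3 was at 15.3 and 15.1 CPM in germ-cell-like cells of libraries 5 and 6 and at 0 CPM in niche cells of both, below the level asked for. Its platelet partner Itga2b had no UMI in germ-cell-like cells, while Itgav, its other partner, had 9.27 CPM (5.30 to 15.1) in germ-cell-like cells and 6.77 CPM in niche cells. Itga4 had no UMI and Itga6 1.74 CPM, from 3 UMIs, in germ-cell-like cells.

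Genes that work with integrins were set beside a background in which 20.3% of all genes at 20 CPM were lower. Of 5 inside-out activation genes at that level 1 was lower, and of 11 focal adhesion genes 3 were lower. Of 6 genes at 20 CPM on the list of inhibitors of activation, 4 were lower. These were the filamin gene Flna (14.5 CPM in germ-cell-like cells and 65.7 CPM in niche cells), Itgb1bp1 and the tensin genes Tns1 and Tns3. The tensins are adaptors, so this is a count of the list and not of inhibitors alone. The Ilk partner Parva had 1.74 CPM in germ-cell-like cells and 29.8 CPM in niche cells. Of 5 tetraspanins, Cd63 (3.48 CPM in germ-cell-like cells and 285 CPM in niche cells), Cd81 (35.9 and 235 CPM) and Cd151 (20.3 and 51.1 CPM) were lower, and Cd9 (38.3 and 12.9 CPM) was higher.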

How the data were processed

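The single deposited matrix holds UMI counts per gene and barcode, raw and not normalized; per the submitters' processing notes it was made with Cell Ranger (version not given in the sources used here) on mm10. The labels state a doublet rate under 5%. No barcode is tied to a sample, and p-values were not computed.

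Of 9492 barcodes, 9383 passed minimums of 1000 UMIs and 500 genes and a mitochondrial maximum of 10%. In each library the 5% with the highest doublet score, from 2 simulated doublets per barcode, were removed (468), leaving 8915. Classes were gated on 20 marker lists (177 of 178 genes in the matrix) with thresholds set after seeing the data, so results depend on rebuilt names. UMIs were summed per class and scaled to CPM. Poisson, binomial and conditional ratio intervals are exact at 95% and cover counting error only. Shares were computed after thinning to 3000 UMIs, leaving out shallower cells. The members and lists were chosen with earlier results of these data known. Every member past the call rule is named; of each list, up to 4 genes with the largest log2 ratio among those called were written out, and the text gives some of these. Alternatives covered pseudocount, level, filters, doublets, gates, clusters, scaling, weights and each library left out. Software was Python 3.11.15, numpy 2.4.6, scipy 1.17.1, pandas 2.3.3, scikit-learn 1.9.0, leidenalg 0.10.2 and igraph 0.11.9.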

Additional observations from a re-analysis of the deposited data

How the results depend on the processing

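Of 31 calls of single genes, 8 held under every alternative run: Itga4, Itgb3 and Fermt2 between pre-HSC-like and endothelial cells, Itga6 between endothelial and niche cells, Itga2b and Fermt3 between megakaryocyte-like and pre-HSC-like cells, and Fermt3 in macrophage-like and in blood progenitor-like against pre-HSC-like cells. The other 23 were lost under at least 1 alternative. One value changed direction: Itgb3 between macrophage-like and pre-HSC-like cells was 0.58 on the log2 scale with classes taken from clusters, where the cluster used held 181 cells, 33.1% of them macrophage-like. The count of 4 genes called between pre-HSC-like and endothelial cells stayed within 1.5 times of itself under every alternative.

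Adding 50 CPM in place of 10 left 1 gene called between endothelial and niche cells (4 in the main setting), 4 between megakaryocyte-like and pre-HSC-like cells (7), 2 between macrophage-like and pre-HSC-like cells (9), 0 between germ-cell-like and niche cells (2), 0 between arterial-like and venous-like cells (1) and 1 between blood progenitor-like and pre-HSC-like cells (4). A level of 50 CPM left 4, 3, 1, 0 and 2 in the last 5 of these. Between macrophage-like and pre-HSC-like cells, classes from clusters gave 5. Between germ-cell-like and niche cells, no level filter gave 7 and equal weight per library 8. Between arterial-like and venous-like cells, adding 1 CPM, no level filter, gates with 1 more marker, gates on thinned barcodes and equal weight per library each gave 2, no doublet removal and scaling by the median ratio each gave 0, and leaving out 1 library gave 0 to 3. Between blood progenitor-like and pre-HSC-like cells, gates on thinned barcodes gave 1. The cause of these changes was not tested. Scaling by the median ratio moved the median of all genes by over 0.1 only between germ-cell-like and niche cells, by -0.12.

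Without library 2, 6 or 7, Fermt2 was no longer called between megakaryocyte-like and pre-HSC-like cells, at -0.63 without library 7, and without library 8 it was -1.98 between macrophage-like and pre-HSC-like cells. Classes from clusters gave no value for megakaryocyte-like, arterial-like and blood progenitor-like cells, nor did equal weight for macrophage-like cells. No paired analysis was possible because no barcode carries a replicate number and no test was made. Counts of under 10 UMIs limit the values of rare classes.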
